A study of Mus musculus with 6 samples.

Results

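The genes described here make, release and receive the Hedgehog signal. Levels were measured in keratinocytes of tail epidermis from mice labelled Gpr161 knockout or control. The genes were the rows whose symbol equalled one of 8 names (Ptch1, Hhip, Smo, Gas1, Cdon, Boc, Shh and Disp1). All 8 were found among the 19618 genes of the count table. Enough reads for a test across libraries were present for 7 of them, Shh being the exception. Polyadenylated RNA came from epidermal cells freed from tail skin of mice aged 4 months. There were 6 libraries, 3 per group. The knockout group carried K14cre, a Cre recombinase driven by the promoter of keratin 14, which is active in basal keratinocytes and their descendants, and was homozygous for a floxed Gpr161 allele. The labels of the control group list no K14cre: 1 control was homozygous and 2 were heterozygous for the floxed allele. All mice thus carried at least 1 floxed allele, and only the knockout group carried Cre. The table shows the group of each library but not which mouse it was, so libraries are called by their tags. Knockout libraries are DE679, DE685 and DE688, and control libraries are DE680, DE684 and DE689.

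In the Hedgehog pathway a secreted ligand such as Sonic hedgehog, the product of Shh, is released from the producing cell with the help of Disp1 and bound on the receiving cell by the receptor Ptch1. The coreceptors Gas1, Cdon and Boc present the ligand to Ptch1. Without ligand Ptch1 holds the membrane protein Smo inactive, and with ligand Smo becomes active at the primary cilium and the Gli transcription factors switch on target genes. Ptch1 and Hhip, a decoy protein that binds the ligand, are themselves such targets and act as negative feedback, whereas Gas1, Cdon and Boc are known to be repressed by the signal in several embryonic tissues. Gpr161 is a ciliary receptor that restrains the pathway downstream of Smo. In skin, Shh from the growing hair follicle acts on epithelial and dermal cells.

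Library totals ran from 17157864 to 25344399 estimated counts, and levels are given as CPM, a count scaled to a common library total, with TMM factors between libraries. A value of 3 counts corresponded to 0.118 to 0.175 CPM. The targeted gene, Gpr161, had 26.8, 33.6 and 25.9 CPM in the knockout libraries DE679, DE685 and DE688 and 30.2, 32.2 and 31.9 CPM in the control libraries DE680, DE684 and DE689. These ranges overlapped, so the level of the whole gene does not check the labels, and each direction below compares libraries labelled knockout with those labelled control. One library per group, DE685 in the knockout and DE684 in the control, held Y-linked transcripts. Markers of the labelled cell type were present: 7 basal keratinocyte markers, Krt5 and Krt14 among them, had summed levels of 31115 to 34904 CPM among knockout libraries and 27093 to 32104 CPM among controls. Nothing in the labels states separate litters or preparation days, so p-values measure the spread between these libraries.

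Of the 7 members tested, 2 passed an adjusted p of 0.05 in the edgeR quasi-likelihood test with Benjamini-Hochberg adjustment over 15422 genes, Ptch1 and Smo, and both were higher in the knockout. Over all genes tested, 1.24% were higher by that rule, 0.357% were lower and 1.6% passed in either direction. The feedback receptor Ptch1 rose 2.99-fold and Smo 1.35-fold. The coreceptors Gas1 and Boc and the release gene Disp1 had higher means without passing, Cdon and Hhip had overlapping groups, and the few Shh reads lay mostly in the control. Groups did not overlap for 4 of the 7 tested members, all higher (Ptch1, Smo, Gas1 and Disp1). With DESeq2, Gas1, Boc and Disp1 passed as well, all higher, where 3.81% of the genes with an adjusted p were higher. The tags form 3 neighbouring pairs of 1 knockout and 1 control (DE679 and DE680, DE685 and DE684, DE688 and DE689). No label says what the tags stand for, but the libraries of each pair deviated together from their group means. The contrast with other pairings is partly built in, since deviations within a group cancel out. DE685 and DE684 are also the libraries with Y-linked transcripts. With these pairs as a block, a fit added after the data were seen, Gas1, Boc and Disp1 passed in edgeR too, all higher, where 3.02% of all genes were higher. Over all tested genes, 25.6% had groups that did not overlap, 12.8% with the knockout higher. The median log2 fold change was 0.43 over the 7 tested members and −0.0036 over all tested genes.

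**Figure D1:**
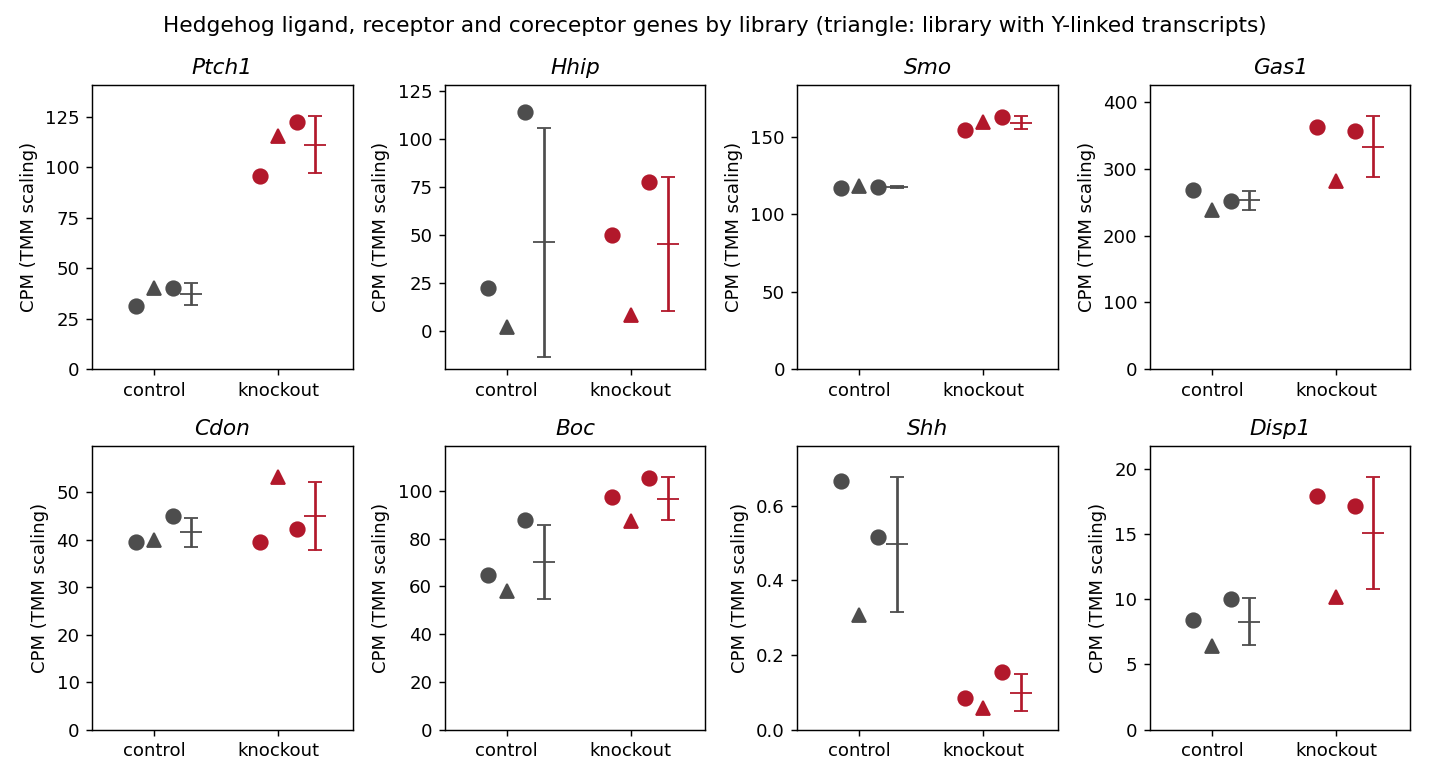
Level of each gene in each library as CPM with TMM scaling (vertical axes, linear), control in grey and knockout in red; points are libraries, triangles the libraries with Y-linked transcripts, and bars the mean ± SD (n = 3). The 3 knockout libraries lay between 95.4 and 122 CPM for Ptch1 and all controls at or below 40.4 CPM, whereas Hhip spread from 2.06 to 114 CPM within the control group.

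Ptch1, the receptor that binds the ligand and restrains Smo, lies on chromosome 13 (63508328 to 63573598, minus strand, mm10). Knockout levels were 95.4 (DE679), 116 (DE685) and 122 CPM (DE688), and control levels 31.0 (DE680), 40.4 (DE684) and 40.1 CPM (DE689). The lowest knockout library was more than double the highest control, and both libraries with Y-linked transcripts lay within or next to the range of their group. Mean levels were 111 ± 14.01 and 37.1 ± 5.35 CPM (SD, n = 3 each). On the log2 scale the change was 1.58 (SE 0.13, edgeR adjusted p 0.00228), a 2.99-fold higher level with a 95% interval of 2.43 to 3.69. Ptch1 ranked 16 by p-value among the 15422 genes.

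Smo, the membrane protein that Ptch1 restrains, lies on chromosome 6 (29735503 to 29761365, plus strand). Its levels were 155, 160 and 163 CPM in the knockout libraries DE679, DE685 and DE688, and 117, 118 and 117 CPM in the controls DE680, DE684 and DE689. The groups did not overlap, and the spread within each was small: the means were 159 ± 4.17 and 118 ± 0.696 CPM (SD, n = 3 each). The change was 0.43 on the log2 scale (SE 0.05, edgeR adjusted p 0.00883), a 1.35-fold higher level with a 95% interval of 1.25 to 1.46. The call was lost without DE688 (log2 fold change 0.42, edgeR adjusted p 0.0550) and with both libraries holding Y-linked transcripts left out (0.44, edgeR adjusted p 0.0768).

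The sequence before the start of these 2 genes is shown because they were the members that passed the test and Ptch1 is known to be driven by Gli factors. Each run holds the 250 bases before a RefSeq start (GRCm38.p6, strand of the gene), 5′ to 3′. The Ptch1 window is chr13:63565736-63565985, inside the annotated gene, since Ptch1 has several starts, and the Smo window is chr6:29735247-29735496.
Ptch1: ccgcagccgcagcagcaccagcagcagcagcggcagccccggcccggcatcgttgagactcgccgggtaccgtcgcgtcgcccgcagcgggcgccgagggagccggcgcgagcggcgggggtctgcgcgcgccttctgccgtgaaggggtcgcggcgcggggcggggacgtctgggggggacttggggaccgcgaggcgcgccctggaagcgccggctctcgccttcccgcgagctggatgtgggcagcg
Smo: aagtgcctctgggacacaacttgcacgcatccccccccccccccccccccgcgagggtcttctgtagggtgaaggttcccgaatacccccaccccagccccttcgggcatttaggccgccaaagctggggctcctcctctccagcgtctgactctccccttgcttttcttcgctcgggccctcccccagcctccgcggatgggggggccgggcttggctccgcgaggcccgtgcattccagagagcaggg
Capitals would mark the 9-base Gli site GACCACCCA, or its reverse complement TGGGTGGTC, with at most 1 mismatch, and neither run holds one. None of the 7 windows of the 6 members in the table (Ptch1, Hhip, Smo, Gas1, Cdon and Disp1) held it. Of all 32851 windows of this length, 5.79% held a match with at most 1 mismatch and 0.225% an exact one. A window without a match is thus the usual case. Sequence farther from these starts was not searched, so these windows do not show whether Gli sites lie elsewhere. The windows of Ptch1 and Smo were 78.4% and 68.4% G or C.

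Hhip, the ligand-binding decoy, varied more between libraries of 1 group than between groups. It lies on chromosome 8 (79965851 to 80058006, minus strand). Its levels were 50.04 (DE679), 8.49 (DE685) and 77.6 CPM (DE688) in the knockout, and 22.4 (DE680), 2.06 (DE684) and 114 CPM (DE689) in the control. The highest and the lowest of the 6 values were both controls, and in each group the library with Y-linked transcripts was the lowest. The means were 45.4 ± 34.8 and 46.0 ± 59.5 CPM (SD, n = 3 each), and the change was −0.02 on the log2 scale (SE 1.12, edgeR adjusted p 0.996). Its 95% interval, from 0.163-fold to 6.02-fold, includes the change seen in Ptch1 and also its opposite. Leaving out DE689 gave 1.90 and leaving out DE685 gave 0.47, with edgeR adjusted p of 0.455 and 0.861. With the tag pairs as a block the change was 0.61 (SE 0.39, edgeR adjusted p 0.386), so the sign of the Hhip difference was not settled. The annotated exons of Hhip overlap those of Gm27820 on the opposite strand, and whether counting used the strand is not given in the sources used here.

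**Figure D2:**
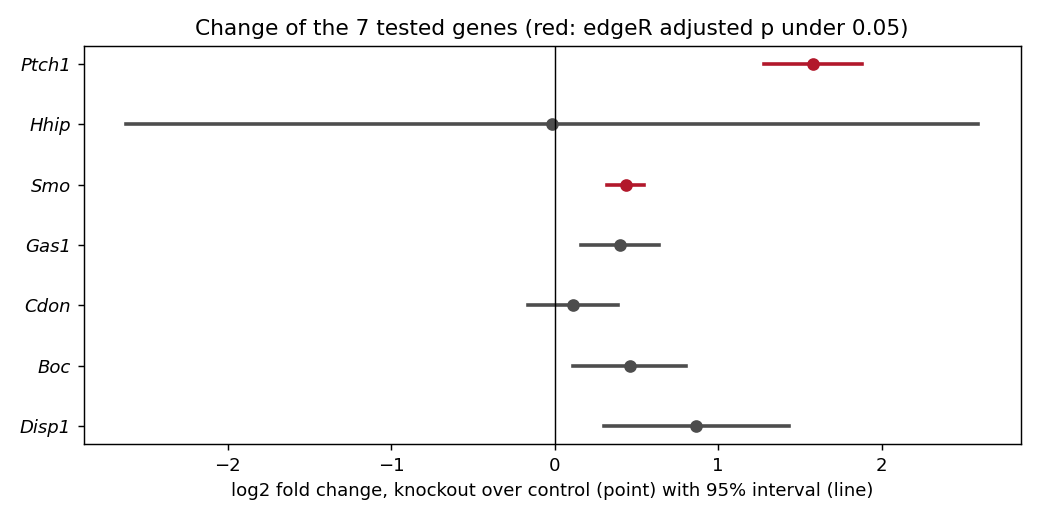
Log2 fold change of the 7 tested genes, knockout over control (horizontal axis), as points with the 95% interval from the edgeR fit as lines; red marks an adjusted p under 0.05. Ptch1 stands at 1.58 and Smo at 0.43 with narrow intervals, and the Hhip interval runs from −2.62 to 2.59.

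Gas1, a coreceptor anchored to the outer face of the membrane, is on chromosome 13 (60174405 to 60177365, minus strand). Knockout libraries had 363 (DE679), 282 (DE685) and 356 CPM (DE688), and controls 268 (DE680), 239 (DE684) and 252 CPM (DE689). The groups did not overlap, but DE685 stood only slightly above the highest control. The means were 333 ± 45.1 and 253 ± 14.7 CPM (SD, n = 3 each), which differ by 0.40 on the log2 scale (SE 0.10, edgeR adjusted p 0.108). With sex as a covariate the change was 0.39 and passed (edgeR adjusted p 0.0297), and it passed without DE685 at 0.51 (edgeR adjusted p 0.0372). With the tag pairs as a block it was 0.39 (SE 0.07, edgeR adjusted p 0.0229). The covariate fit called 1.94% of all genes higher. The single exon of Gas1 overlaps Gm48488 on the opposite strand.

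Boc, an immunoglobulin-like coreceptor on chromosome 16 (44485049 to 44558897, minus strand), had 97.3 (DE679), 87.4 (DE685) and 105 CPM (DE688). In the control it had 64.8 (DE680), 58.2 (DE684) and 87.9 CPM (DE689). The groups met at DE685 and DE689, the lowest knockout lying just below the highest control. The means were 96.7 ± 9.02 and 70.3 ± 15.6 CPM (SD, n = 3 each), a log2 difference of 0.46 (SE 0.15, edgeR adjusted p 0.166). Without DE689 it was 0.66 (edgeR adjusted p 0.0452), and with the tag pairs as a block 0.48 (SE 0.08, edgeR adjusted p 0.0201).

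Cdon, the coreceptor related to Boc, is on chromosome 9 (35421128 to 35507652, plus strand) and had 39.6 (DE679), 53.1 (DE685) and 42.2 CPM (DE688). The controls had 39.5 (DE680), 40.01 (DE684) and 45.1 CPM (DE689). Only DE685 stood above the control range. The means were 45.0 ± 7.19 and 41.5 ± 3.08 CPM (SD, n = 3 each), and the change was 0.11 on the log2 scale (SE 0.12, edgeR adjusted p 0.644). The 95% interval of the fold, 0.894 to 1.31, lies below the 2.43 that bounds the Ptch1 change from below. Without DE685 the Cdon change was −0.02.

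None of the 3 coreceptors was lower in the knockout by the test, and the means of all 3 were higher. The 3 coreceptors are also expressed by dermal fibroblasts, and in bulk RNA more cells of a type and more RNA per cell cannot be told apart. A list of 7 fibroblast markers summed to 129 to 142 CPM in the knockout and 37.5 to 79.4 CPM in the control. That gap lay in Dcn, a matrix proteoglycan, with 112 to 123 against 20.8 to 40.6 CPM. The 6 other fibroblast markers summed to 15.1 to 19.0 CPM in the knockout and 12.6 to 38.8 CPM in the control, and Lum and Twist2 did not exceed 0.27 CPM in any library. The highest control total of these 6 was in DE684, where Gas1 and Boc were the lowest of the controls and Cdon lay between the others. The highest knockout total was in DE688, where Boc was the highest of the knockout libraries and Gas1 and Cdon lay between the others. The part of fibroblasts in the coreceptor levels was not tested. Levels of 7 dermal papilla markers summed to 11.6 to 15.8 CPM in the knockout and 9.52 to 19.3 CPM in the control.

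Lists of markers of other cells of the epidermis gave these values. The 6 melanocyte markers summed to 79.2 to 117 CPM in the knockout and 54.0 to 78.9 CPM in the control, with all 6 means higher. None passed the edgeR test, where 3 had an unadjusted p under 0.05, against 19% of all tested genes. Pmel passed with DESeq2 (DESeq2 adjusted p 0.0418), where 3.81% of the genes with an adjusted p were higher. Of 7 markers of the hair follicle bulge, the niche of follicle stem cells, 1 rose: Nfatc1, a transcription factor of these stem cells, with 175, 218 and 231 CPM in DE679, DE685 and DE688 against 110 to 111 CPM in DE680 and DE689 and 102 CPM in DE684. Its log2 fold change was 0.95 (edgeR adjusted p 0.00771). Sox9, Lhx2 and Tcf3 had higher groups that did not overlap, without passing, as 12.8% of all tested genes had such groups. Tcf3 changed by only 0.15 on the log2 scale (edgeR adjusted p 0.245). Cd34 and Krt24 of the same list had lower means with overlapping groups (log2 fold change −0.29 and −0.25, edgeR adjusted p 0.504 and 0.439). The summed bulge levels overlapped (1274 to 1529 CPM against 1207 to 1446 CPM), and most of that sum was Krt24, at 654 to 1020 CPM. All 7 markers of differentiated keratinocytes had lower means in the knockout, and none passed the edgeR test. Of these, 3 had an unadjusted p under 0.05 in that test, against the same 19%. Krtdap passed with DESeq2 (DESeq2 adjusted p 0.00152), where 307 of the 14816 genes with an adjusted p were lower. They summed to 18234 to 25493 CPM in the knockout and 20570 to 34555 CPM in the control. With the tag pairs as a block Sox9, Lhx2, Lgr5 and the melanocyte factor Mitf passed as higher and Krtdap as lower (edgeR adjusted p 0.0159, 0.0408, 0.0298, 0.0273 and 0.0382). In that fit 3.02% of all genes were higher, and 239 of 15422 were lower. The part of these lists in the results for the members was not tested.

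Shh, the ligand gene on chromosome 5 (28456815 to 28467256, minus strand), was close to the limit of detection. Counts were 2 (DE679), 1 (DE685) and 4 (DE688) in the knockout, and 15 (DE680), 7 (DE684) and 13 (DE689) in the control. Every control library thus held more Shh counts than any knockout library, although the knockout values were at or near 3 counts. Summed over libraries these were 7 counts in the knockout and 35 in the control, a ratio of 0.212 after scaling, with an exact 95% counting interval of 0.0794 to 0.484. The interval covers counting error at most and leaves out the spread between libraries, since counts were pooled within each group. No molecular identifiers are mentioned in the labels, so repeat reads of a molecule may be counted more than once. Shh did not pass the filter on low counts. An exact two-sided permutation test of its CPM gave p = 0.1, the smallest that 3 libraries against 3 allow. In the fit with no filter its log2 fold change was −2.21 (SE 0.60, edgeR adjusted p 0.134). Exons of Shh overlap those of 9530036O11Rik and Gm26894 on the opposite strand. Ihh, another ligand gene, had at most 0.19 CPM in any library and was not tested.

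Markers of the hair matrix and shaft, the growing follicle in which Shh is normally made, did not separate the groups: 6 of the 7 listed genes were in the table, summing to 111 to 165 CPM in the knockout and 112 to 152 CPM in the control. Of these, Lef1, a transcription factor of the Wnt pathway, had groups that did not overlap, with means of 8.93 and 3.41 CPM in knockout and control. It did not pass the test (edgeR adjusted p 0.11). Over all tested genes, 12.8% had higher groups that did not overlap.

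Disp1, the transporter-like protein that releases the ligand from the producing cell, lies on chromosome 1 (183086266 to 183221522, minus strand). Levels were 17.9 (DE679), 10.2 (DE685) and 17.2 CPM (DE688) in the knockout, and 8.43 (DE680), 6.41 (DE684) and 10.00 CPM (DE689) in the control. All knockout values were above all controls, by a narrow margin for DE685. The means were 15.1 ± 4.26 and 8.28 ± 1.80 CPM (SD, n = 3 each), and the change was 0.87 on the log2 scale (SE 0.24, edgeR adjusted p 0.128), or 1.82-fold with a 95% interval of 1.23 to 2.70. With the sex covariate the change was 0.84 and passed (edgeR adjusted p 0.0186). With the tag pairs as a block it was 0.85 (SE 0.13, edgeR adjusted p 0.0147).

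Levels of different genes can be compared only per length, here as CPM per kb of annotated exon, a measure that is too low for a gene such as Ptch1 whose 14.2 kb of exon come from many isoforms. In the control the order was Gas1 (85.3), Smo (20.9), Boc (15.8), Cdon (5.38), Hhip (5.07), Ptch1 (2.62), Disp1 (1.58) and Shh (0.174 CPM per kb). The Hhip range overlapped those of both neighbours, and no other neighbours overlapped. In the knockout Ptch1, at 7.84 ± 0.988 CPM per kb (SD, n = 3), stood between Boc at 21.7 and Cdon at 5.83. Its range there, 6.73 to 8.62, overlapped that of Cdon, 5.13 to 6.89, whereas in the control Ptch1 (2.18 to 2.85) lay wholly below Cdon (5.12 to 5.84). The order of the other 7 genes among themselves was the same in both groups.

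**Figure D3:**
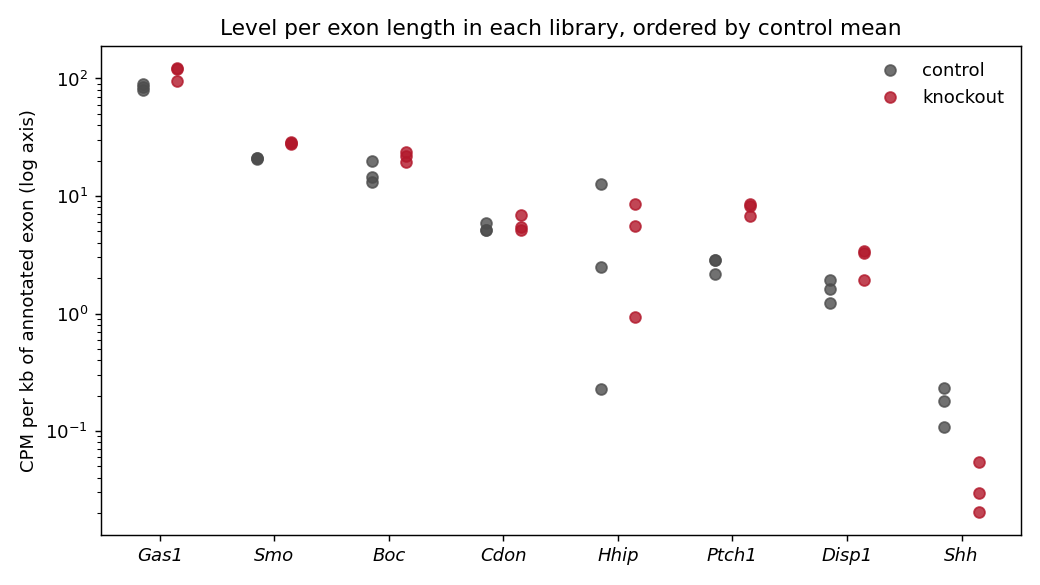
CPM per kb of annotated exon (vertical log axis) for each gene in each library, ordered by the control mean, control in grey and knockout in red. Gas1 is the highest in every library and Shh the lowest, and Ptch1 lies below all Cdon values in the control and between 6.73 and 8.62 in the knockout.

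To set the feedback receptor against the other genes, the log2 ratio of Ptch1 to each of them, as (CPM + 0.5), was compared within libraries. A ratio within a library needs no gene length. Relative to Cdon, Ptch1 stood at 1.26, 1.12 and 1.53 in the knockout libraries DE679, DE685 and DE688 and at −0.35, 0.012 and −0.17 in the controls DE680, DE684 and DE689. The groups did not overlap, and the mean ratio differed by 1.47 on the log2 scale. The ratio to Gas1 differed by 1.18, that to Smo by 1.14 and that to Boc by 1.10, and none of these groups overlapped. Relative to Smo and to each coreceptor, Ptch1 was thus 2.14-fold to 2.76-fold higher in the knockout libraries. Exact two-sided permutation tests of these 4 ratios and of Ptch1 to Shh each gave p = 0.1, the smallest possible with 3 libraries against 3 (0.14 after Benjamini-Hochberg adjustment over 7 ratios), so the design cannot reach 0.05 here. The ratio to Disp1 differed by 0.76 with overlapping groups (exact permutation p = 0.2). The ratio to Hhip differed by 0.77 with overlapping groups (exact permutation p = 0.7). Ptch1 to Shh differed by 2.29, but rests on the 0.5 CPM added to Shh levels of at most 0.67 CPM. All 7 ratios share the same Ptch1 values.

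**Figure D4:**
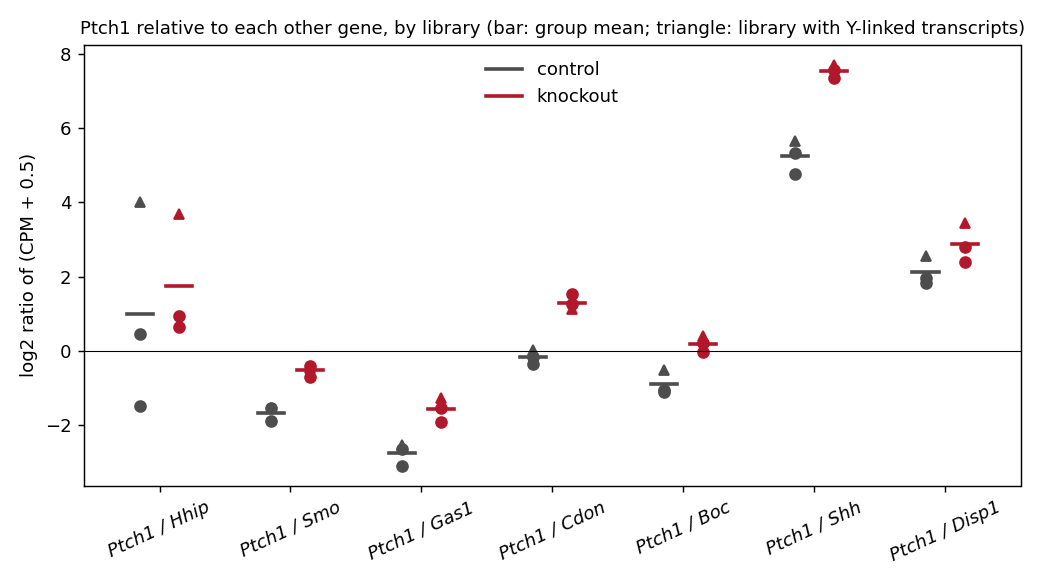
Log2 ratio of Ptch1 to each other gene, from (CPM + 0.5), in each library (vertical axis), control in grey and knockout in red; horizontal bars are group means and triangles libraries with Y-linked transcripts. Knockout libraries lie above all controls for Smo, Gas1, Cdon, Boc and Shh, and the groups overlap for Hhip and Disp1.

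The members also differed among libraries of the same genotype. In both groups the library with Y-linked transcripts was the lowest of 3 for 5 of the 8 genes, Hhip, Gas1, Boc, Shh and Disp1. Over all tested genes, which do not include Shh, 15.7% showed this pattern. For Shh the order of the knockout libraries rests on 1 count in DE685 against 2 in DE679 and 4 in DE688. For Hhip the gap was wide: 8.49 CPM in DE685 against 50.04 and 77.6 CPM in the other knockout libraries, and 2.06 CPM in DE684 against 22.4 and 114 CPM in the other controls. Ptch1 and Smo did not show it, and the Cdon value of DE685 was the highest of all. Summed immune cell markers were also lowest in these libraries, at 51.0 CPM in DE685 and 27.0 CPM in DE684 against 74.0 to 124 CPM in the other 4. Of these markers Cd3g was not lowest in DE685. Hair matrix and shaft markers summed lowest there too (111 and 112 CPM), but the largest part of that sum was Hoxc13 (56.2 and 52.5 CPM). Lef1, Krt31, Krt35 and Krt71 were instead the highest of the controls in DE684. In DE685 Krt31, Krt35 and Krt71 were not the lowest of the knockout libraries. Differentiated keratinocyte, sebocyte and dermal papilla markers instead summed to the highest of each group in DE685 and DE684. Most of the differentiated keratinocyte sum was Krt10, and single markers of these lists went the other way. Krtdap, Sbsn, Cidea, Mc5r and Awat1 were the lowest of the controls in DE684. Sbsn and Sox18 were the lowest of the knockout libraries in DE685. The part of these lists in the pattern was not tested. In an edgeR fit chosen after seeing the data, with genotype as the other term, these 2 libraries against the other 4 gave a log2 difference of −3.76 for Hhip (SE 0.80, edgeR adjusted p 0.113) and −0.66 for Disp1 (SE 0.13, edgeR adjusted p 0.105). None of the 8 members passed, and 0.582% of all genes did. At an unadjusted p under 0.05 in that edgeR fit there were 4 members, against 10.4% of all genes, and DESeq2 was not run on this difference. With 1 such library per group, which also carry neighbouring tags, sex and other features of those 2 libraries cannot be told apart.

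The genes whose pattern over the 6 libraries was most like that of Ptch1, by the mean absolute difference of centred log2(CPM + 0.5) among 13663 genes with a mean of at least 1 CPM, were Scn4b (0.053), Scnn1g (0.10), Kcnj8 (0.13), Cgnl1 (0.13) and Tbkbp1 (0.13). Scn4b encodes a sodium channel subunit, Scnn1g a subunit of the epithelial sodium channel, Kcnj8 a potassium channel and Cgnl1 a protein of cell junctions. Cgnl1, the most abundant of them, had 74.1, 83.2 and 91.4 CPM in DE679, DE685 and DE688 against 30.4, 34.8 and 34.4 CPM in DE680, DE684 and DE689. Scn4b and Kcnj8 lay near the added 0.5 CPM in the controls, at 0.40 to 0.70 and 0.18 to 0.35 CPM. The added amount makes the group differences of these low genes smaller on this measure. Their edgeR log2 fold changes were 2.12 and 2.61, and those of Scnn1g, Cgnl1 and Tbkbp1 were 1.76, 1.32 and 1.89. That of Ptch1 was 1.58. Among the members, Disp1 came nearest to Ptch1 on this measure (0.44, rank 250), Smo stood at 0.57 (rank 827), and Hhip was nearly at the end (1.65, rank 13631). The measure is also large for any gene with a wide spread, and Hhip ran from 2.06 to 114 CPM. Counted from Hhip, Ptch1 stood at the same 1.65 but at rank 8375. For Hhip the nearest genes were less alike: Cyp2a5 (0.36), Akr1c18 (0.65), Zfp97 (0.75), Carns1 (0.78) and Bex1 (0.80). Cyp2a5, a cytochrome P450, was likewise lower in DE685, DE680 and DE684 than in the other 3 libraries, though its highest values were in DE679 and DE688 rather than DE689, with 24.0, 2.71 and 24.0 CPM in DE679, DE685 and DE688 and 4.53, 0.31 and 21.7 CPM in DE680, DE684 and DE689. Among the members Disp1 came nearest to Hhip (1.31, rank 160).

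Outside these 8 genes, 33 other genes of the pathway were listed, of which 27 were in the table and 25 were tested. Of the 25, 4 rose, 0 fell and 21 did not pass, with a median log2 fold change of 0.17, against 1.24% higher and 0.357% lower over all genes. At an unadjusted p under 0.05 in the edgeR test there were 11, against 19% of all tested genes. Among the regulators of the receptors and of Smo, 0 of 13 passed in the edgeR test, and 5 had an unadjusted p under 0.05, against the same 19%. Evc and Evc2, ciliary partners of Smo, had log2 fold changes of 0.86 and 0.81 (edgeR adjusted p 0.150 and 0.0825), and were the 2 that passed with DESeq2 (DESeq2 adjusted p 0.0237 and 0.00142). With the tag pairs as a block Evc2 passed (edgeR adjusted p 0.0383) and Evc did not (0.0575).

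None of the 4 tested genes for making, releasing or carrying the ligand passed. Scube2, which helps release the ligand, stood at 1.58 ± 0.324 CPM in the knockout against 0.820 ± 0.0604 CPM in controls (SD, n = 3 each), with no overlap and an edgeR adjusted p of 0.143. Higher groups without overlap were seen for 12.8% of all tested genes. Hhat, the enzyme that adds palmitate to the ligand, changed by 0.17 (edgeR adjusted p 0.629). Among the 8 effector genes, 4 rose: Gli1 by 2.93, Gli2 by 1.79, Kif7, a ciliary kinesin that controls Gli proteins, by 0.69, and Tulp3, which carries Gpr161 into the cilium, by 0.61 on the log2 scale. Their edgeR adjusted p-values were 1.77e-05, 0.00259, 0.0302 and 0.0116. Annotated exons of Gli1 and Kif7 overlap opposite-strand genes (Arhgap9 and Gm47200; Ticrr and 9330171B17Rik), so part of their counts is uncertain. Kif7 lost its call in all 6 fits that left out a library and Tulp3 without DE679 and without DE688. Gli3, which acts mainly as a repressor, had 45.1 ± 2.22 against 45.3 ± 4.35 CPM (SD, n = 3 each), a change of −0.0057.

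**Figure D5:**
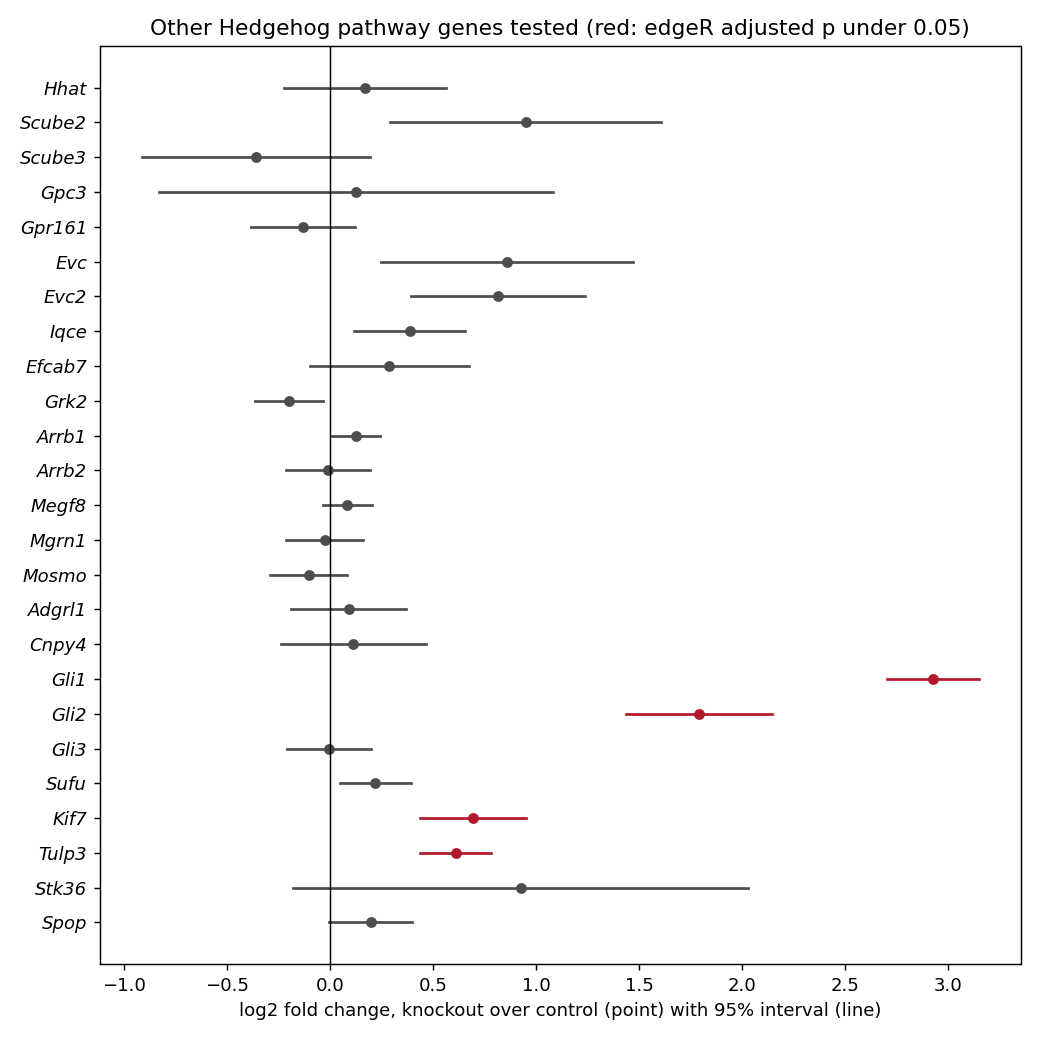
Log2 fold change of the 25 other pathway genes tested, knockout over control (horizontal axis), with 95% intervals from the edgeR fit as lines; red marks an adjusted p under 0.05. Gli1 (2.93), Gli2 (1.79), Kif7 (0.69) and Tulp3 (0.61) are the 4 red genes, and all lie to the right of 0.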

How the data were processed

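RNA was sequenced from 6 libraries, 3 per group. Per the submitters' processing notes, bcl2fastq 2.20, cutadapt 1.18, STAR 2.7.0f, Partek and the build mm10 were used. The counting tool and its strand setting are not given in the sources used here. The authors deposited estimated counts per gene, 53.4% to 58.3% of them whole in a library, and a normalized signal that in each library is the estimated count times a constant plus 0.001. Gene positions equal those of GENCODE M21 (GRCm38), used for exon lengths and overlaps.

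The estimated counts were rounded. The test had been laid out for counts and was kept. Genes were filtered with filterByExpr, scaled with TMM (factors 0.975 to 1.03) and fitted with glmQLFit and glmQLFTest (edgeR 4.0.16, R 4.3.3), genotype being the only term, with Benjamini-Hochberg adjustment over all genes tested. Standard errors and 95% intervals were derived from the F statistic and its degrees of freedom. The fit was tested on simulated data. Permutation tests used scipy 1.17.1.

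Columns were assigned to groups only, by name. No pair of libraries within a group agreed within counting noise (chi-square over its degrees of freedom, 12.2 to 39.9). The genes named were the 8 members, Gpr161, pathway genes with an adjusted p under 0.05, and the 5 genes most like Ptch1 and most like Hhip; other names (Lef1, Dcn, Ihh, Scube2, Hhat, Evc, Evc2, Gli3, Nfatc1, Sox9, Lhx2, Tcf3, Lgr5, Mitf, Pmel, Krtdap and other single markers) were chosen after their values were seen. A further listed gene is not reported here and was left out of the lists and of the search for like genes. Members, lists and tests were chosen with earlier results of these data known. Alternatives were DESeq2 1.42.0, limma-voom, limma trend (3.58.1) on log2 of the authors' signal plus 1, other scaling factors (upper-quartile, RLE), a filter at a mean of 1 CPM or none, a sex covariate read from Xist and Y-linked genes, each library left out in turn, pseudocounts of 0.1 and 1 CPM for ratios and, added after seeing the data, both libraries with Y-linked transcripts left out and neighbouring tags as a replicate block. Deviations from the group means, in log2(CPM + 0.5) over 15422 genes, correlated at 0.22, 0.37 and 0.40 within the 3 tag pairs and at −0.33 to −0.073 in the 6 other pairings of a knockout with a control. Deviations within a group cancel out by construction, so a positive value in a pairing goes with negative values in others. The contrast is thus partly built in, and DE685 and DE684 also share Y-linked transcripts. The pairing is read from the column names and these correlations; no label states it, and the fit without the block, laid out for this comparison, was kept as the main one.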

Additional observations from a re-analysis of the deposited data

How the results depend on the processing

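The count of genes past the threshold, 247 of 15422, was 872 with DESeq2 (64.8% of them higher, against 77.7%), 409 with the sex covariate, 704 with neighbouring tags as a replicate block (66.1% higher), 87 without both libraries holding Y-linked transcripts and 69 (without DE688) to 121 (without DE684) with a library left out; fewer libraries per fit lower it by construction, and the cause of the 3 increases was not tested. Ptch1 kept its direction and passed in all 16 alternatives, from 1.46 to 1.68. Smo ranged from 0.42 to 0.46 with a library left out and was 0.44, short of the threshold, without both libraries holding Y-linked transcripts. Gas1 passed at 0.40 with DESeq2 and 0.39 with the sex covariate and with the block; leaving out a library gave 0.34 to 0.51. Boc passed at 0.46 with DESeq2 and 0.48 with the block, and ranged from 0.34 to 0.66. Disp1 passed at 0.87 with DESeq2 and 0.84 with the sex covariate and 0.85 with the block; leaving out a library gave 0.71 to 1.08. Cdon reversed to −0.050 without both libraries holding Y-linked transcripts and ranged from −0.024 (without DE685) to 0.20. Hhip reversed with the block (0.61), the sex covariate (0.32), limma-voom (0.96), limma trend on the deposited normalized signal (0.73) and upper-quartile factors (0.020); leaving out a library gave −0.65 to 1.90. Shh stayed lower in the 6 fits that tested it, from −2.68 to −1.99, with no edgeR adjusted p under 0.134. The ratio of Ptch1 to Hhip ranged from −0.47 to 2.27 with a library left out; the other 6 ratios kept their direction. Kif7 and Tulp3 fell short of the threshold without both libraries holding Y-linked transcripts. The cause of these changes was not tested. The replicate numbers of the labels could not be paired, since the columns do not carry them; the block uses the tags, and besides Gas1, Boc and Disp1 it changed the call of no member. Depth limits Shh, whose knockout libraries held 1 to 4 counts.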
